A study of Mus musculus with 18 samples.

Results

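The mitochondrial ribosome translates the few proteins that the mitochondrial genome encodes, which are core subunits of the respiratory chain and ATP synthase. Its own proteins are encoded in the nucleus, translated by cytosolic ribosomes and imported. The genes are named Mrpl for the large subunit and Mrps for the small subunit, and most encode short proteins. About these genes the series allows the question of how their mRNAs lay across ribosome fractions, relative to other mRNAs. It also shows how that differed when DDX6, an RNA helicase of translational repression and mRNA decay, was missing.

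The members were protein-coding genes with an Mrpl or Mrps symbol followed by a number. Of 78 such genes in the annotation, 77 reached 3 CPM (reads of a gene scaled to a common library size) in at least 3 libraries, out of 12705 genes that did so among 51467 in the table. They comprised 48 Mrpl and 29 Mrps genes. The remaining gene, Mrpl53 (chr6:83109040-83109939, plus strand, GRCm38), had 0 counts in every library, and its exons overlap those of Gm42688 on the same strand. Of the 77 genes, 74 were at or above 3 CPM in all 18 libraries. The exceptions were Mrps36, which reached that level in 5 libraries, Mrps18b in 8 and Mrpl23 in 13. The values of Mrps36 and Mrps18b rest on few reads, with lowest counts of 3 and 4 in a library.

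The libraries came from V6.5 mouse embryonic stem cells (ESCs) in serum with LIF and 2i (PD0325901 and CHIR99021), treated with cycloheximide to hold ribosomes in place. WT cells and Ddx6 KO cells made with CRISPR-Cas9 gave 3 sucrose gradients each. Every gradient yielded a monosome, a low polysome (2 to 4 ribosomes) and a high polysome (4 or more ribosomes) library. KO gradient 1 was from clone 1 and KO gradients 2 and 3 were from clone 2, so clone 1 had no replicate. Total gene counts ran from 2543617 to 11474550 per library, and the WT monosome libraries were the shallowest, at 2543617 to 4894677 against at least 7043953 elsewhere. Ddx6 itself was at 143 to 212 CPM in the 9 WT libraries, at 55.3 to 82.7 CPM in the 3 libraries of clone 1 and at 9.68 to 26.7 CPM in the 6 of clone 2. The reads are from the 3′ ends of transcripts, so they show the level of the transcript and not whether it encodes protein. The paper reported a premature stop in both clones and no DDX6 protein in either by Western blot. The pluripotency genes Pou5f1, Nanog and Sox2 were expressed in every library, with lowest levels of 19.5, 107 and 199 CPM. The fractions contain RNA only as shares of each library, so fewer transcripts and a smaller share of the library cannot be told apart.

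The coding sequences of the members were short, with a median of 591 nt (range 198 to 1329 nt) against 1365 nt for the 11692 other protein-coding genes tested. For this reason the members are set beside 3714 other protein-coding genes with coding sequences between 364.8 and 1060.2 nt, the 10th to 90th percentile of the members. Their untranslated ends were also short, with medians of 92 nt (5′) and 327 nt (3′), against 158 nt and 835 nt for the genes of similar coding length. The largest numbers on a chromosome were 11 members on chromosome 11 and 8 on chromosome 17.

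Many members shared letters at the start codon. The run ATGGCG, which is the start codon followed by GCG, opened the coding sequence of 27 of the 77 members (35.1%), against 11.2% of 11429 other protein-coding genes whose start could be read and 12.4% of 3638 such genes of similar coding length. The longer run AANATGGCG, which includes the first, was found in 13 members (16.9%) and in 3.60% of the other genes. It resembles the TISU element, a start-site sequence known from genes with short 5′ leaders, many of them mitochondrial. The search was on the sense strand at the annotated start codon only. Below are the starts of the 5 members with the highest and the 5 with the lowest WT ratio of high polysome to monosome, followed by 3 members whose translation level fell in Ddx6 KO cells, as described later; the highest and lowest are among members that passed the test. Each shows 12 bases before and 18 bases from the start codon of the chosen Gencode transcript (GRCm38), 5′ to 3′, with the start codon and, where present, the GCG after it in capitals.
Mrpl3 (highest ratio; chr9:105053239-105079888, plus strand): ccggccacttccATGccgggttggaggctg
Mrpl40 (chr16:18872018-18876862, minus strand): gcgtgaaaaactATGgctaccggggtgatg
Mrpl16 (chr19:11770391-11774960, plus strand): acacgcgtggccATGtggaggctgttgacg
Mrpl50 (chr4:49512596-49521093, minus strand): tgcttgtcgagaATGGCGgcgctgatcgtg
Mrps5 (chr2:127587222-127606829, plus strand): tccggctccagcATGGCGgcggccgtacgc
Mrpl23 (lowest ratio; chr7:142532686-142540747, plus strand): ggtgcggctgccATGGCGcggaatgtgttg
Mrpl33 (chr5:31596935-31664384, plus strand): aatcggtggaccATGctgctctccgctgtc
Mrps21 (chr3:95862634-95871519, minus strand): aaatacgaggccATGgctaaacatctgaag
Mrps24 (chr11:5703983-5715680, minus strand): cgccggcccaagATGGCGtggtccgcgtcg
Mrpl57 (chr14:57826234-57829296, plus strand): cgaggaggcaccATGttcctcaccgctgtc
Mrpl42 (KO fall; chr10:95480805-95501940, minus strand): ttgctaaggatcATGgctgcggcagtaaaa
Mrpl51 (KO fall; chr6:125191801-125196269, plus strand): caggctagagtaATGgcagggagtgtccct
Mrps14 (KO fall; chr1:160195215-160202170, plus strand): tgggcagacaacATGGCGgcgtccgtgcta

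Both ends of the WT order held starts with and without ATGGCG. Across the 77 members the median WT log2 ratio of high polysome to monosome was 0.60 with ATGGCG and 0.23 without it, at median coding lengths of 621 and 550.5 nt. Among the genes of similar coding length the same medians were 0.22 and 0.16.

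In WT cells most members lay toward the polysomes, relative to the rest of each library. Translation level is used here for the high polysome abundance over the monosome abundance, on the log2 scale. A value of 0 is set by the scaling of the libraries and does not mean equal amounts of RNA in both fractions. In the limma fit translation level was higher than 0 for 39 of 77 members and lower for 17 (adjusted p under 0.05), while 21 did not pass. Over all 12705 genes 28.9% were called higher and 32.2% lower. Of the genes of similar coding length, 35.7% were called higher and 29.7% lower. The median of the members was 0.44, that of genes of similar coding length 0.16. Estimates of the members were the more precise, with a median SE of 0.14 against 0.20, at higher abundance, so the called shares are not at equal power. The median of the members was 0.45, 0.36 and 0.33 in WT gradients 1 to 3, above the values of 0.17, 0.14 and 0.10 for genes of similar coding length in each gradient.

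Members differed widely among themselves, from -3.61 to 1.53. Mrpl3, a bacterial-type protein of the large subunit, had the highest ratio of all members. It was at 29.9, 34.8 and 27.8 CPM in WT monosomes, 67.4, 62.5 and 59.4 CPM in low polysomes and 91.1, 90.4 and 85.2 CPM in high polysomes. The fractions did not overlap, and the high polysome exceeded the monosome by 1.53 ± 0.15 (SE) on the log2 scale (limma adjusted p = 3.4e-08). Among called members, next came Mrpl40 (1.39 ± 0.13), Mrpl16 (1.38 ± 0.13), Mrpl50 (1.32 ± 0.19), Mrps5 (1.30 ± 0.16) and Mrpl22 (1.27 ± 0.18). Mrpl15, Mrpl1, Mrps35 and Mrpl35 completed the 10 highest called members, between 1.18 and 1.21. Mrps28 had an estimate of 1.43 ± 0.63, above that of Mrpl40, but was not called (limma adjusted p = 0.056).

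Mrpl23, also of the bacterial-type large subunit set, had the lowest ratio. It was at 26.7, 26.5 and 36.5 CPM in WT monosomes, 8.09, 5.77 and 6.09 CPM in low polysomes and 1.54, 3.40 and 2.45 CPM in high polysomes. Its abundance was thus ordered from monosome to high polysome with no overlap, and the difference of high polysome and monosome was -3.61 ± 0.30 (adjusted p = 2.1e-09). Mrpl33 was at 426, 393 and 399 CPM in monosomes and at 66.9, 57.2 and 71.0 CPM in high polysomes, a difference of -2.65 ± 0.15. Its exons overlap those of Gm43809 on the same strand, so its count may be affected, which was not tested. Mrps21 (-2.12 ± 0.22), Mrps24 (-2.11 ± 0.16), Mrpl57 (-2.09 ± 0.16), Mrpl52 (-1.85 ± 0.15), Mrpl54 (-1.69 ± 0.13) and Mrpl30 (-1.65 ± 0.15) followed. The coding lengths of these 8 genes ran from 198 to 504 nt.

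Longer members lay further toward the high polysome. Of 26 members up to 500 nt, 5 were called higher and 11 lower in the WT high polysome. Of 39 members between 500 and 1000 nt, 23 were higher and 6 lower, and of 12 between 1000 and 1500 nt, 11 were higher and 0 lower. Of the other protein-coding genes in these classes, 14.1%, 38.4% and 36.7% were higher and 57.5%, 26.7% and 24.2% lower. Across the 77 members Spearman's correlation of coding length and WT translation level was 0.58, against 0.17 over the genes of similar coding length. Both are given as a description, since all members share the same libraries. The lengths ran from 198 to 1329 nt in the members but only from 366 to 1059 nt in those genes. The correlations therefore cannot be compared in size. Medians of the 3 classes were -0.06, 0.50 and 0.93, against -0.77, 0.26 and 0.21 for other protein-coding genes of the same classes.

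**Figure D1:**
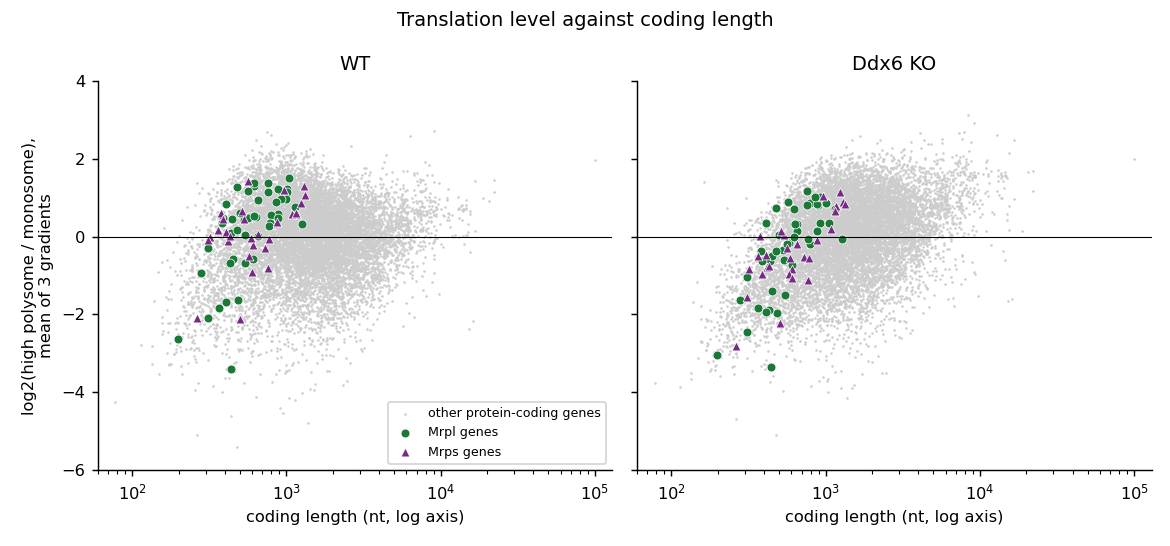
Mean log2 ratio of high polysome to monosome over 3 gradients (vertical axis, pseudocount 0.5 CPM) against coding length in nt (log axis), in WT (left) and Ddx6 KO cells (right). Green circles are Mrpl genes, purple triangles Mrps genes and grey points the other protein-coding genes; short members lie lowest in both genotypes.

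By role, 28 of 48 Mrpl genes were higher in the WT high polysome and 12 lower, with a median of 0.49. Of 29 Mrps genes 11 were higher and 5 lower, with a median of 0.10. The 29 bacterial-type large subunit genes had 15 higher and 8 lower, and the 18 mitochondria-specific ones 12 higher and 4 lower. The 16 bacterial-type small subunit genes had 4 higher and 4 lower, and the 9 mitochondria-specific ones 6 higher and 1 lower. Over all genes 28.9% were higher and 32.2% lower, and of genes of similar coding length 35.7% and 29.7%. The difference between these classes was not tested, and the classes were not matched for coding length. The S18 family is named for the small subunit although MRPS18A sits in the large subunit, and its 3 genes were not called in this ratio. Their estimates were -0.05 ± 0.21 for Mrps18a, -0.95 ± 0.46 for Mrps18b and 0.03 ± 0.21 for Mrps18c. Mrps36, whose protein belongs to the alpha-ketoglutarate dehydrogenase complex in spite of its name, had -0.27 ± 0.43.

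Among members of short coding length, high values in the low polysome were common. Set against the WT monosome, the WT low polysome held 37 members at higher and 11 at lower abundance, with 20.4% and 22.8% of all genes called in these directions and 29.0% and 15.3% of genes of similar coding length. Among members up to 500 nt 17 of 26 were higher and 2 lower, while 38.8% of 1027 other protein-coding genes up to 500 nt were higher and 12.3% lower. Mrps18a rose by 1.33 ± 0.20 (adjusted p = 2.8e-05), Mrpl12 by 1.08 ± 0.13 and Mrps12 by 1.06 ± 0.13. MRPL12 belongs to the stalk of the large subunit and MRPS12 to the decoding region of the small subunit. Mrpl12 was at 224, 218 and 224 CPM in WT monosomes, 487, 458 and 465 CPM in low polysomes and 162, 137 and 147 CPM in high polysomes. The low polysome thus held the highest values in each gradient, and the high polysome was below the monosome by 0.58 ± 0.13 (adjusted p = 0.00048). Mrps12 had the same peak, with 460, 398 and 476 CPM in the low polysome against 181, 235 and 224 CPM in the monosome. Its high polysome, at 211, 177 and 199 CPM, overlapped the monosome and was not called (-0.13 ± 0.13). Mrps34 (1.06 ± 0.13), Mrpl3 (1.03 ± 0.15), Mrpl17 (0.98 ± 0.11) and Mrpl58 (0.97 ± 0.14), which encodes a peptidyl-tRNA hydrolase built into the large subunit, were also among the largest rises.

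Lower values in the WT low polysome were found for Mrpl23 (-2.17 ± 0.24), Mrps31 (-1.06 ± 0.23), Mrpl19 (-1.05 ± 0.15) and Mrpl24 (-0.98 ± 0.11), and also for Mrps18b (-2.38 ± 0.60), which was at 0.613 to 1.83 CPM there. Mrpl24 had an inverted profile, with 174, 198 and 196 CPM in the monosome, 95.8, 94.8 and 96.0 CPM in the low polysome and 203, 198 and 174 CPM in the high polysome. The low polysome values were all below the others, and the high polysome and monosome overlapped.

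To ask whether the loss of DDX6 changed these ratios, the interaction of genotype and fraction was tested. Translation level fell in Ddx6 KO cells for 27 of the 77 members and rose for 0, where 7.09% of all genes fell and 10.7% rose (limma, adjusted p under 0.05). The balance over all genes depended on the setting, with 1357 genes higher and 901 lower here, 936 and 1386 scaled by library size alone, 1326 and 1360 with DESeq2, and 1250 and 1744 with only the groups compared, while the members had 0 rises under each. At an unadjusted p under 0.05, 41 fell and 0 rose, and edgeR and DESeq2 also called 0 rises. Among genes of similar coding length 16.4% fell and 1.86% rose, and the medians were -0.47 for the members and -0.35 for those genes. Those genes were longer, with a median coding length of 732 nt against 591 nt for the members. Their estimates were also less precise, with a median SE of 0.27 against 0.20, so the called shares are not at equal power. The estimate was negative for 68 members. The falls were not spread evenly by length, with 13 of 26 members up to 500 nt, 13 of 39 up to 1000 nt and 1 of 12 above. Other protein-coding genes had the same order by length, with 25.6%, 15.6% and 3.79% falling in these classes. When the trend of abundance on coding length was removed in each library before the fit, 2 falls remained, Mrpl3 (-1.08 ± 0.18) and Mrpl42 (-0.70 ± 0.18), and the median of the members was -0.11. Without KO gradient 3 there were 8 falls and without WT gradient 2 there were 13.

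**Figure D2:**
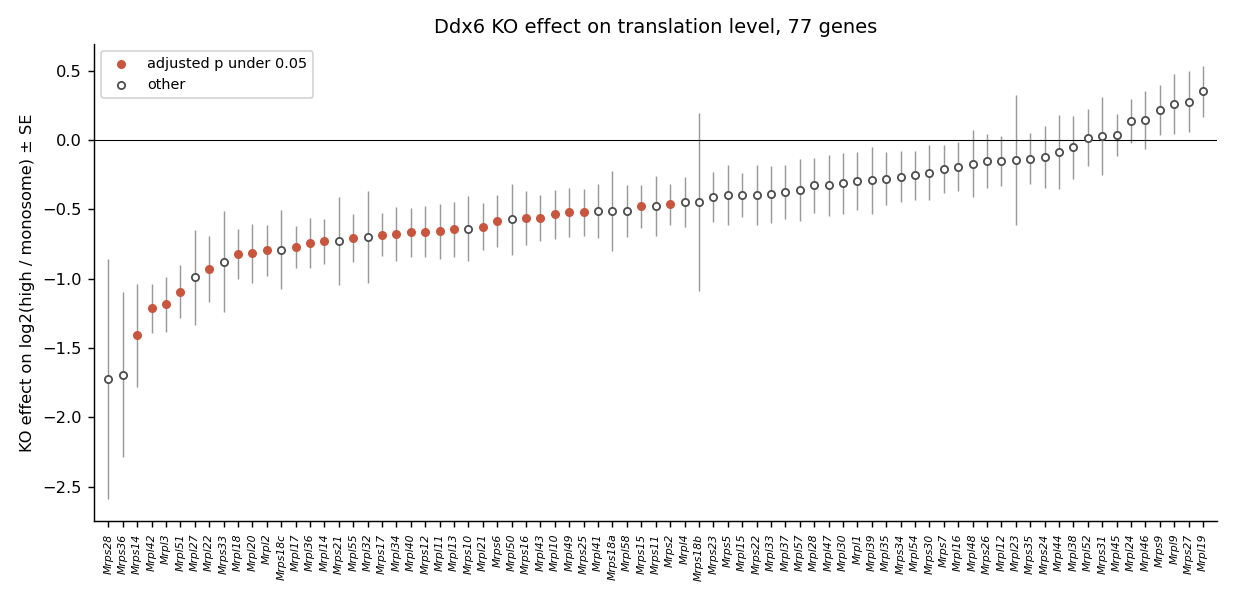
KO effect on the log2 ratio of high polysome to monosome (KO difference less WT difference) for each of the 77 members, with its SE. Filled points have a limma adjusted p under 0.05; all 27 of them are negative, and Mrps28, Mrps36 and Mrps18b have the widest errors.

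The median log2 ratio of the members was 0.45, 0.36 and 0.33 in WT gradients and -0.15, -0.11 and -0.10 in KO gradients. The genotypes did not overlap, and the gradient of clone 1 was the lowest of the KO gradients. Genes of similar coding length also lay lower in KO gradients, from 0.14 ± 0.04 (SD, n = 3 gradients) to -0.23 ± 0.09, while the median of all other protein-coding genes was 0.06 ± 0.0057 and 0.11 ± 0.03. The members stood above genes of similar coding length by 0.28, 0.22 and 0.23 in WT gradients and by -0.02, 0.12 and 0.22 in KO gradients, and these margins overlapped between genotypes. Other groups with short coding sequences had other values, which were not tested against the members. Nuclear-encoded respiratory chain subunits went from -0.12 ± 0.13 to -0.99 ± 0.31, and cytosolic ribosomal proteins, whose monosome share was high, from -1.59 ± 0.06 to -1.02 ± 0.15. Of 80 respiratory chain genes 46.25% were called lower and 3.75% higher in the KO effect. Of 75 cytosolic ribosomal protein genes 0% were called lower and 30.7% higher. Ratios of all 3 KO gradients were below those of all 3 WT gradients for 44 members and above for 1, with 17.8% and 21.2% of all genes in these directions and 35.8% and 5.60% of genes of similar coding length.

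**Figure D3:**
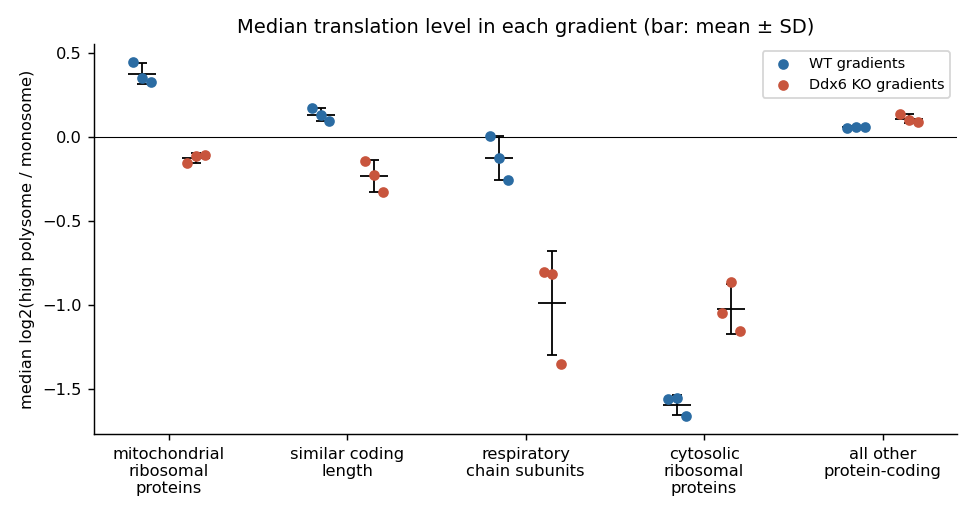
Median log2 ratio of high polysome to monosome in each WT (blue) and Ddx6 KO (red) gradient for the members, for protein-coding genes of similar coding length, for 80 respiratory chain subunit genes, 75 cytosolic ribosomal protein genes and all other protein-coding genes; bars are the mean ± SD of 3 gradients. The members, the genes of similar length and the respiratory chain genes lay lower in KO gradients, and the cytosolic ribosomal proteins lay higher.

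Mrpl42, a mitochondria-specific protein of the large subunit, showed the fall in every gradient. It was at 123, 132 and 122 CPM in WT monosomes and 156, 132 and 140 CPM in KO monosomes. In the low polysome it was at 170, 160 and 142 CPM in WT and 96.1, 91.4 and 83.5 CPM in KO cells, and in the high polysome at 77.4, 80.6 and 76.1 CPM against 35.0, 34.8 and 45.1 CPM. The polysome values did not overlap between genotypes, the monosome values overlapped by a small margin, and the KO effect was -1.21 ± 0.18 on high polysome over monosome (adjusted p = 0.00024) and -0.98 ± 0.17 on low polysome over monosome (adjusted p = 0.0039).

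Mrpl51, another mitochondria-specific large subunit gene, differed in the monosome. Its values there were 40.2, 52.0 and 39.6 CPM in WT and 84.3, 82.9 and 84.9 CPM in KO cells, and in the high polysome 60.1, 60.4 and 61.6 CPM against 55.9, 58.2 and 49.5 CPM. Neither fraction overlapped between genotypes, with the wider gap in the monosome and the opposite direction in the high polysome, and the KO effect was -1.10 ± 0.19 (adjusted p = 0.0011). Mir3098 overlaps an exon of Mrpl51 on the same strand. Mrpl3 had the same form, with 29.9, 34.8 and 27.8 CPM in WT monosomes and 56.4, 78.6 and 80.4 CPM in KO monosomes, but 91.1, 90.4 and 85.2 CPM against 94.9, 88.9 and 86.4 CPM in high polysomes. Its KO effect was -1.18 ± 0.20 (adjusted p = 0.00079).

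Mrps14, a bacterial-type small subunit gene, had the largest called fall, -1.41 ± 0.37 (adjusted p = 0.014). Its monosome values were 79.2, 95.2 and 95.3 CPM in WT and 134, 140 and 162 CPM in KO cells, and its high polysome values were 111, 133 and 123 CPM against 80.7, 84.9 and 58.5 CPM. Neither fraction overlapped between genotypes, but the call was lost without WT gradient 2 or without KO gradient 3. Further called falls were those of Mrpl22 (-0.93 ± 0.24), Mrpl18 (-0.82 ± 0.18), Mrpl20 (-0.82 ± 0.21), Mrpl2 (-0.79 ± 0.18), Mrpl17 (-0.77 ± 0.15), Mrpl36 (-0.74 ± 0.18) and Mrps12 (-0.66 ± 0.18). Calls held in all 6 fits that left out a gradient for 7 of the 27 members. Of the 27, 19 were lower in the KO high polysome, 8 were higher in the KO monosome and 0 were lower there. Of all 77 members, 42, 9 and 8 were called in these directions. The 27 were chosen by the difference of these same changes, so their split is in part fixed by that choice.

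Against the low polysome, 16 members fell and 2 rose in Ddx6 KO cells. Over all genes 2.39% and 2.31% were called in these directions, and 4.28% and 1.62% of genes of similar coding length. Median SEs were 0.20 for the members and 0.27 for the latter genes, so these shares are not at equal power. The latter genes were also longer, with a median coding length of 732 nt against 591 nt. The falls lay mostly in the shortest class, with 13 of 26 members up to 500 nt. From 500 to 1000 nt 2 of 39 fell, and from 1000 to 1500 nt 1 of 12. Of other protein-coding genes in these classes 15.97%, 3.08% and 0.735% fell. Of the 16 member falls 12 were shared with the high polysome. Both KO effects use the same monosome libraries, so this overlap is in part fixed by that. The same overlap over all genes is not given here. Mrps12 fell by 0.91 on the log2 scale (SE 0.18, adjusted p = 0.010), from 460, 398 and 476 CPM in the WT low polysome to 234, 271 and 207 CPM in KO cells, with monosome values of 220, 197 and 222 CPM in KO cells. The low polysome values did not overlap between genotypes, and in KO gradient 3 the low polysome lay below the monosome. Mrps16 (-0.88 ± 0.19), Mrps24 (-0.87 ± 0.22), Mrpl34 (-0.85 ± 0.19) and Mrpl57 (-0.85 ± 0.21) followed. The rises were those of Mrpl19 (0.84 ± 0.20, adjusted p = 0.022) and Mrpl24 (0.69 ± 0.16, adjusted p = 0.021), both bacterial-type large subunit genes. Both had been low in the WT low polysome, but the WT ratio is part of the KO effect, so these values are not independent. With the length trend removed 1 fall, Mrpl3, and both rises remained. Without WT gradient 1 there were 0 falls and 0 rises, without KO gradient 3 there was 1 fall and without WT gradient 2 there were 3.

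**Figure D4:**
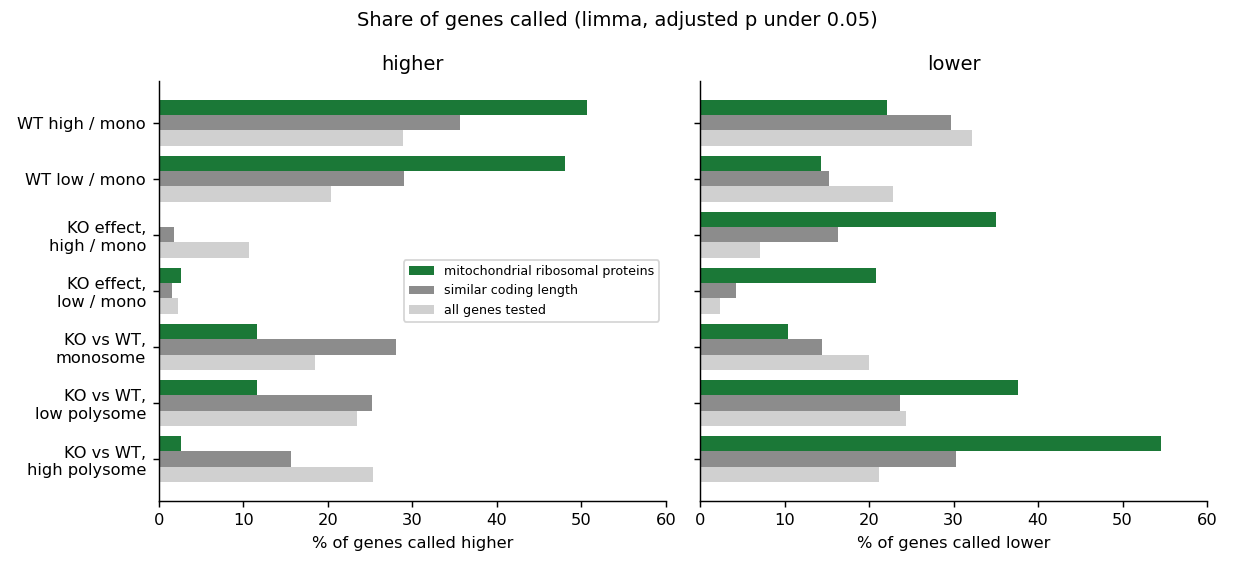
Share of genes called higher (left) or lower (right) in percent, by comparison, for the 77 members (green), genes of similar coding length (dark grey) and all genes tested (light grey). Among the groups drawn, the members had the largest share of falls in both KO effects and in the KO low and high polysome. Their estimates had the smaller median SE in every comparison, so the shares are not at equal power. Their median coding length was 591 nt, against 732 nt for the genes of similar coding length. Respiratory chain subunit genes, not drawn, had falls of 46.25% (high over monosome), 36.25% (low over monosome), 48.75% (KO low polysome) and 46.25% (KO high polysome).

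Within fractions, the monosome had the fewest called members and the high polysome the most. In the KO monosome 9 members were higher and 8 lower, beside 18.6% and 20.1% of all genes and 28.1% and 14.4% of genes of similar coding length; scaled by library size alone these members were 14 and 7. In the low polysome 9 were higher and 29 lower (23.4% and 24.3% of all genes, 25.3% and 23.6% of genes of similar coding length). In the high polysome 2 were higher and 42 lower (25.3% and 21.1% of all genes, 15.6% and 30.3% of genes of similar coding length), with a median of -0.41. With the length trend removed 27 were lower in the high polysome and 17 in the monosome. That fit held protein-coding genes only, and its shares over all genes fitted are not given here. The shares above belong to the main fit, so they are no background for these 2 counts.

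Mrps24, a bacterial-type gene of the small subunit, was lower in all 3 fractions. It was at 457, 483 and 458 CPM in WT monosomes and 223, 156 and 191 CPM in KO monosomes. In the low polysome it was at 670, 551 and 545 CPM against 155, 138 and 103 CPM, and in the high polysome at 110, 93.2 and 122 CPM against 43.3, 35.7 and 41.2 CPM. No fraction overlapped between genotypes, and the differences were -1.31 ± 0.15, -2.17 ± 0.15 and -1.43 ± 0.16 (adjusted p = 1.7e-06, 1.1e-09 and 8.0e-07). Mrpl30 and Mrpl54 were the other members called lower in all 3 fractions, with -0.56 ± 0.15, -0.96 ± 0.15 and -0.88 ± 0.16 for Mrpl30. The shares of all genes called lower, or called higher, in all 3 fractions are not given here.

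Mrps25, a mitochondria-specific small subunit gene, was the only member called higher in all 3 fractions in this fit. It was at 100.0, 83.9 and 81.0 CPM in WT monosomes and 198, 216 and 208 CPM in KO monosomes. Low polysome values were 115, 128 and 139 CPM in WT and 253, 262 and 214 CPM in KO cells, and high polysome values 137, 145 and 133 CPM against 242, 222 and 221 CPM. The genotypes were separate in each fraction, with differences of 1.25 ± 0.12, 0.93 ± 0.11 and 0.73 ± 0.11 (adjusted p = 1.7e-07, 1.9e-06 and 3.3e-05).

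Mrpl19 was the other member called higher in the KO high polysome (0.70 ± 0.12, adjusted p = 0.00011). It was at 80.3, 66.1 and 62.9 CPM there in WT and 119, 111 and 107 CPM in KO cells. Its low polysome values were 25.4, 21.1 and 25.5 CPM against 57.1, 59.6 and 48.8 CPM, a difference of 1.19 ± 0.14, and its monosome values were 48.2, 53.2 and 47.2 CPM against 68.4, 64.4 and 56.9 CPM, which was not called (adjusted p = 0.056). The genotypes did not overlap in any of the fractions.

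**Figure D5:**
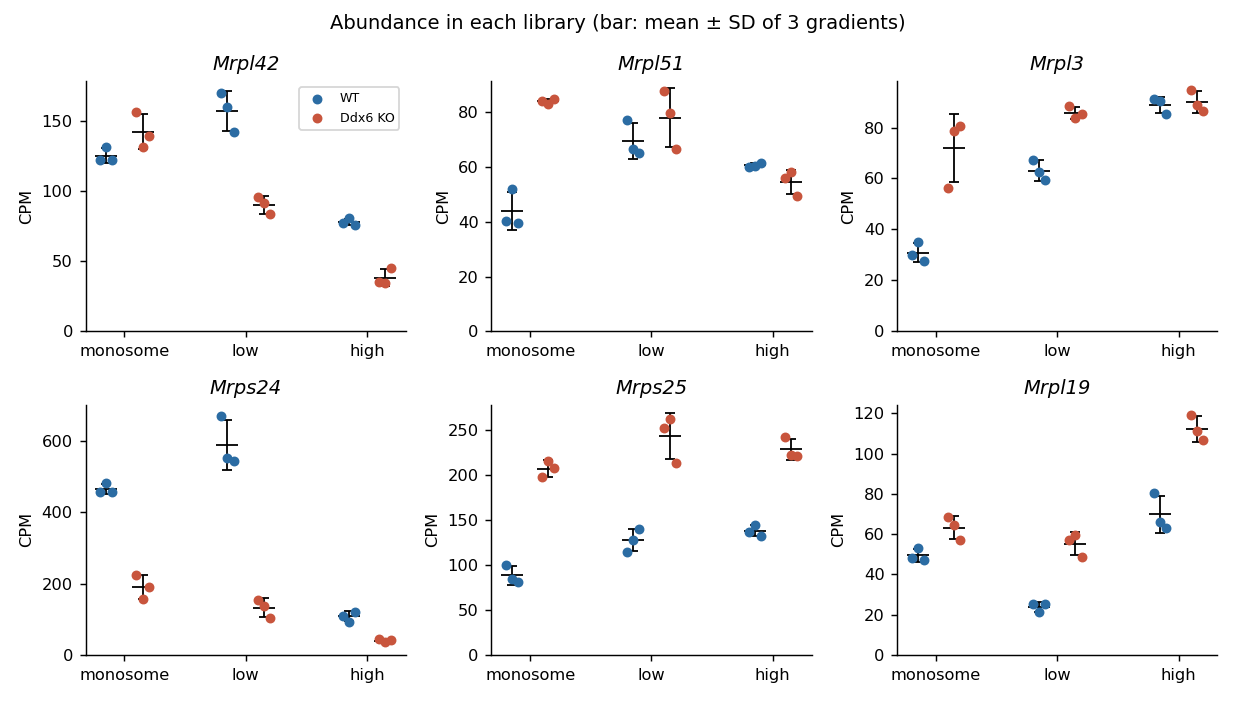
Abundance in CPM in each library of 6 members, by fraction, in WT (blue) and Ddx6 KO cells (red), with the mean ± SD of 3 gradients. Mrps24 lies lower and Mrps25 higher in KO cells in all fractions, Mrpl51 and Mrpl3 differ most in the monosome, and Mrpl42 in the polysomes.

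Other large falls in the KO high polysome were those of Mrpl42 (-1.03 ± 0.13), Mrpl39 (-0.96 ± 0.16), Mrpl32 (-0.94 ± 0.22), Mrpl36 (-0.93 ± 0.13) and Mrpl2 (-0.80 ± 0.13), and of Mrps36 (-1.12 ± 0.43), which was at 0.716 to 1.34 CPM there. In the low polysome Mrpl54 (-1.12 ± 0.12), Mrpl36 (-0.97 ± 0.12) and Mrps12 (-0.91 ± 0.13) fell, and Mrpl12 fell in the low (-0.51 ± 0.12) and high polysome (-0.33 ± 0.13). Mrps18c fell in both as well (-0.56 ± 0.18 and -0.62 ± 0.19), on exons that overlap Gm43511. In the monosome Mrps6 rose (0.75 ± 0.14), where Gm49711 and Slc5a3 overlap it. The share of all genes with no called difference between genotypes is not given here. Of the members, 13 had no such call, among them Mrps7, Mrps27 and Mrpl46. Mrps28, another of these, was at 171, 147 and 17.4 CPM in the WT low polysome and 153, 31.4 and 135 CPM in the KO low polysome, so that WT gradient 3 and KO gradient 2 stood apart within their groups.

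Mitoribosomal proteins under other symbols included called and uncalled genes. Aurkaip1 fell in translation level in KO cells (-0.88 ± 0.17, adjusted p = 0.0025), as did Chchd1 (-0.72 ± 0.18, adjusted p = 0.0091), beside 7.09% of all genes. Dap3 (0.28 ± 0.26), Ptcd3 (0.15 ± 0.21) and Gadd45gip1 (-0.20 ± 0.20) were not called. Coding lengths were 603 nt for Aurkaip1 and 357 nt for Chchd1, against 1191, 2058 and 669 nt for Dap3, Ptcd3 and Gadd45gip1. Of 16 mitochondrial translation factors tested, 4 rose and 0 fell in translation level, beside 10.7% and 7.09% of all genes. Of other protein-coding genes 5.6% rose between 1000 and 1500 nt and 21.1% over 1500 nt. The 4 factors that rose had coding sequences of 1302 nt or more. They were Oxa1l, the inner membrane insertase (1.19 ± 0.20), and Gfm2, which acts in ribosome recycling (0.99 ± 0.24). The others were Lrpprc, an mRNA stability factor (0.94 ± 0.29), and Gfm1, an elongation factor (0.75 ± 0.25). Of 26 mitoribosome assembly factors 1 rose and 2 fell, beside the same 10.7% and 7.09% of all genes. The called assembly factors were Dhx30 (0.66 ± 0.22), Mpv17l2 (-0.84 ± 0.29) and Rcc1l (-0.67 ± 0.21).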

How the data were processed

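The deposited file held raw counts per gene, made by the authors from QuantSeq 3′ FWD reads with cutadapt 1.14, STAR 2.5.3a (mm10, unique alignments) and strand-specific featureCounts 1.5.3 on Gencode M14. Since no molecular identifier is described, duplicates from PCR cannot be told from separate molecules. Unique alignment undercounts genes with near-identical copies. Symbols, coordinates, coding lengths, start contexts and exon overlaps came from Gencode M21 (GRCm38), which matched 51274 of 51467 gene rows. Genes with at least 3 CPM in at least 3 libraries were scaled by TMM (edgeR 4.0.16) and fitted with limma-voom 3.58.1 (R 4.3.3) as 6 group means over 18 libraries, with two-sided tests and Benjamini-Hochberg adjustment over all 12705 genes. CPM values are TMM-scaled, and ratios in single gradients used a pseudocount of 0.5 CPM. DESeq2 1.42.0, edgeR's quasi-likelihood test and the settings given below were alternatives.

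The members, lists and comparisons were chosen with earlier results of these data known. Each member could be named with its level. Fold changes were named for up to 10 largest rises and 10 largest falls among called members in each comparison, for Mrps12, Mrpl12 and the S18 family, for the mitoribosomal proteins under other symbols, and for up to 3 listed factors per direction. The WT ratios of Mrps28 and Mrps36 and the value of Gfm1 fall outside that rule and were chosen after their values were seen. Fractions of a gradient share a lysate, so they are paired by design. Deviations of same-gradient libraries correlated between -0.17 and 0.46 over 18 pairs, and same-numbered WT and KO libraries, which share only a number, between -0.48 and 0.42. Libraries are the only replicates, and nothing says that WT gradients came from separate cultures, so p-values may measure technical spread.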

Additional observations from a re-analysis of the deposited data

Results flagged for a closer look

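The KO effect, a test of the difference between the genotypes' fraction ratios, passed for these named members. For high polysome over monosome the log2 values were -1.41 for Mrps14, -1.21 for Mrpl42, -1.18 for Mrpl3, -1.10 for Mrpl51, -0.93 for Mrpl22, -0.82 for Mrpl18, -0.82 for Mrpl20, -0.79 for Mrpl2, -0.77 for Mrpl17, -0.74 for Mrpl36 and -0.66 for Mrps12. For low polysome over monosome they were 0.84 for Mrpl19, 0.69 for Mrpl24, -0.98 for Mrpl42, -0.91 for Mrps12, -0.88 for Mrps16, -0.87 for Mrps24, -0.85 for Mrpl34, -0.85 for Mrpl57, -0.83 for Mrpl20, -0.79 for Mrpl36, -0.78 for Mrpl51 and -0.77 for Mrpl18.

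The ERCC spike-in rows of the table, which no comparison uses, held 28 to 169 counts per library, and their source was not tested.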

How the results depend on the processing

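The more frequent direction of member calls held under every setting in both WT comparisons, in the KO low and high polysome and in the KO effect on high polysome. It did not in the KO monosome or the KO effect on low polysome. Falls in high polysome over monosome, 27 by limma, were 42 with only the groups compared, 2 with the length trend removed and 8 to 21 leaving out a gradient. For low polysome over monosome 16 falls became 5, 1 and 0 to 16 under the same settings, and 2 rises became 4 with DESeq2, 1 with no filter and 0 to 2 leaving out a gradient. For low polysome over monosome leaving out WT gradient 1 left no call, and 0 of the calls passed in all 6 such fits. In the monosome 9 rises became 14 with library size alone or only the groups compared and 5 with the length trend removed, and 8 falls became 5 with no filter, 17 with the length trend removed and 5 to 9 leaving out a gradient. In the low polysome 29 falls became 19 with only the groups compared. In the high polysome 2 rises became 4 and 42 falls became 27 with the length trend removed. The mean median of the members over KO gradients moved from -0.12 to -0.22 with library size alone, and the WT margin over similar lengths from 0.24 to 0.29 over the full range of lengths. With library size alone the median of all genes in the high polysome interaction moved from 0.02 to -0.10. Over all genes, for low polysome over monosome 294 rises and 304 falls became 229 and 494 with library size alone.

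With the gradient as replicate block, or the number for KO against WT, falls were 27 and 16 in the interactions and rises 0 and 3, and 29 and 42 members were lower in the low and high polysome; of 139 named estimates the block changed the call of 1, Mrps18a in the low polysome (-0.46, adjusted p = 0.051).

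Signs changed for 12 named estimates, and 1 of 34 such values passed the test. With the length trend removed Mrpl34 became 0.19 and Mrps12 0.40 in the WT high polysome, Mrps18a 0.0463 there, Mrpl12 0.26 in the KO effect on high polysome, and Mrps18c -0.0716 in the KO monosome. Mrps18a in the WT high polysome was 0.0095 with DESeq2 and 0.078 with no filter. Mrps18b in the KO effect on low polysome was -0.0452 with edgeR, -0.0583 with library size alone and -0.0356 with no filter, and in the KO monosome 0.0020 and 0.029 with the latter settings. Mrps12 in the KO monosome was 0.064 with library size alone, 0.084 with no filter, 0.017 with only the groups compared and 3.2e-05 with the replicate block. Leaving out a gradient gave, in the WT high polysome, -0.23 to 0.0190 for Mrps12, -0.20 to 0.30 for Mrps18a and -0.0937 to 0.23 for Mrps18c. It gave -0.30 to 0.0039 for Mrpl12 in the KO effect on high polysome and -0.0942 to 0.0737 for Mrps12 in the KO monosome. For Mrps18b it gave -1.08 to 0.45 and -0.61 to 0.39 in the KO effects on high and low polysome, and -0.23 to 0.15, -0.46 to 0.42 and -0.93 to 0.22 in the KO monosome, low and high polysome. The cause of these changes was not tested. The WT monosome libraries were the shallowest, and the estimates of Mrps18b and Mrps36, which reached 3 CPM in few libraries, had SEs among the largest of the members.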
